A study of Rattus norvegicus with 24 samples.

Results

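The 10 genes followed here across all 24 arrays belong to brain vessels and the blood-brain barrier. They were taken by name: Cldn5, Abcb1a, Slco1a4, Slc2a1, Tek, Flt1, Kdr, Pecam1, Cdh5 and Vtn. In the platform annotation 14 probe sets name 1 of these genes alone, covering 9 of the 10 genes among 14217 genes in all, and 1 more is shared by Abcb1a and Abcb1b. No probe set was matched to Cdh5 (VE-cadherin), which was not analysed here. Each gene is given by its brightest probe set, and 8 of the 9 could be tested among 8987 genes; Flt1, with a mean signal of 111, lay under the filter at a mean of 137.

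The endothelial cells of brain capillaries are sealed by tight junctions and carry pumps and carriers that decide what passes between blood and brain. Growth factor receptors keep these cells alive and stable, and pericytes with their matrix wrap the capillary and help to keep the barrier closed. Cldn5 is the main claudin of these junctions, Abcb1a (P-glycoprotein) and Slco1a4 (an organic anion carrier) move drugs and hormones, and Slc2a1 (GLUT1) brings in glucose. Tek (TIE2) is the angiopoietin receptor, Flt1 and Kdr are VEGF receptors, Pecam1 is an adhesion molecule of endothelial contacts, and Vtn (vitronectin) is a matrix protein made in the brain mainly by pericytes.

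The study set a genetic rat model of attention deficit hyperactivity disorder beside an environmental one. The genetic model was the spontaneously hypertensive rat (SHR), with Wistar-Kyoto rats (WKY) as its controls; the environmental model was the Sprague-Dawley rat exposed to polychlorinated biphenyls (SD-PCB), with Sprague-Dawley rats (SD) as controls. All 28 rats were male (8 SHR, 8 WKY, 8 SD and 4 SD-PCB) and aged 55 to 65 days, and dose, timing and route of the exposure are not given in the sources used here. Each of the 4 groups gave 1 array for each of 6 regions: the cerebellar vermis, hippocampus, prefrontal cortex, dorsal and ventral striatum, and the substantia nigra taken with the ventral tegmental area (SN/VTA). Whether an array held RNA of 1 rat or a pool is not stated. The 6 regions of a group are its repeated values and may come from the same rats, so a p-value tells how well the regions agree and understates the uncertainty about strain or exposure. The tissue is bulk, in which fewer cells of a type and less RNA per cell cannot be told apart.

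The median signal of an array averaged 163 ± 19.8 in SD, 98.3 ± 13.8 in SD-PCB, 153 ± 17.0 in SHR and 121 ± 16.2 in WKY (SD, n = 6 arrays each). Between 21.4% (SD) and 37.4% (SD-PCB) of probe sets lay under a signal of 50. Within groups, vermis had the highest median in SD-PCB (126.2), SHR (178.2) and WKY (152.6). In SD it had 177.8, under 183.8 in dorsal striatum. SN/VTA had the lowest median in SD (130.7) but not in the other groups. Array brightness thus moved with the groups and with region, and its part in the results below was not tested apart from the alternatives given beside them.

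RefSeq promoter windows of the rat genome build GRCr8, 250 bases before and 50 after the start site, were found for 7 of the 10 genes; Tek, Pecam1 and Cdh5 had none. The 250 bases before the start are shown for the junction and carrier genes called higher in both models (Cldn5, Abcb1a and Slco1a4) and for Kdr, the gene that set SN/VTA apart. Capitals mark the GC box GGGCGG and the ETS core CCGGAA, on either strand.
Cldn5, chr11:95718599-95718848, minus strand: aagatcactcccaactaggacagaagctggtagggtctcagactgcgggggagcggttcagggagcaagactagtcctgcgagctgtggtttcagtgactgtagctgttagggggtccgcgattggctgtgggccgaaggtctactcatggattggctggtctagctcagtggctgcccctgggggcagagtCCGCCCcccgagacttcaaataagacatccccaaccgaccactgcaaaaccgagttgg
Abcb1a, chr4:26397649-26397898, minus strand: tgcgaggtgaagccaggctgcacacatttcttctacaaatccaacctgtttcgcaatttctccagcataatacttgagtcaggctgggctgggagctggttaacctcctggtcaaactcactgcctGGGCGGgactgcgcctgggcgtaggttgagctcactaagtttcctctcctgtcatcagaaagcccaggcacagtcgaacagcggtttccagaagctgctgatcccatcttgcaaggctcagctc
Slco1a4, chr4:176495847-176496096, minus strand: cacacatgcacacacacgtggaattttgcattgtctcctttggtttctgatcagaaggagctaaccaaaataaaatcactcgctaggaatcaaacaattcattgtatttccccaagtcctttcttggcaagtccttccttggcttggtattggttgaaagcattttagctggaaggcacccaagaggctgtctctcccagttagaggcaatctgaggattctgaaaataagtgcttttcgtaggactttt
Kdr, chr14:32571813-32572062, plus strand: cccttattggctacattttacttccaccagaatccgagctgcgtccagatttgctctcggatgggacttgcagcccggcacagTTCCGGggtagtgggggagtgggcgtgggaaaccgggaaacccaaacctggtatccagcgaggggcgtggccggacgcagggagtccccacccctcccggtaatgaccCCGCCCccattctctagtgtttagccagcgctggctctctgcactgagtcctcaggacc
GGGCGG was present in 6 of the 7 whole windows, all but that of Slco1a4, and in 33.1% of 33469 rat windows of the same length. The 6 windows had 53.7% to 72.7% GC and that of Slco1a4 had 43%, against a median of 51.7% over all windows. The share over all windows is not matched for GC. CCGGAA was found in Kdr alone of the 7 and in 15% of all windows. The 4 other motifs searched on both strands were CAGGAA (29.1% of all windows; Vtn), ACAAAG (18.8%; none of the 7), GATAAG (7.05%; none) and TATAAA (14.2%; Flt1 and Slc2a1). The Abcb1a start lies 90808 bases inside the annotated gene span, so other starts of this gene are not covered. A match describes these letters only.

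In SHR against WKY, 7 of the 8 tested genes were higher and none lower, where 20.6% of all tested genes were higher and 13.1% lower (limma, adjusted p under 0.05). The median difference of the 8 was 1.03 on the log2 scale, against 0.11 over all genes. Each of the 7, and Flt1, was higher in SHR in 6 of 6 regions, which 22.3% of all genes were.

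Among junction proteins, Cldn5 ranged from 746 to 1537 in the SHR arrays (median 1116) and from 308 to 918 in WKY (median 518). The groups overlapped only where the SHR vermis and hippocampus met the WKY SN/VTA. The log2 difference was 1.07 ± 0.18 (SE, n = 6 regions, limma adjusted p = 0.000183). Of the transporters, Abcb1a ranged from 717 to 1662 in SHR (median 1407) and from 233 to 915 in WKY (median 514), a difference of 1.29 ± 0.22 (limma adjusted p = 0.000184). Slco1a4 ranged from 634 to 1472 in SHR (median 1123) and from 251 to 716 in WKY (median 453), a difference of 1.27 ± 0.17 (limma adjusted p = 2e-05). The Slco1a4 differences were the most even of the tested genes called here, between 1.04 and 1.52 in every region. The glucose carrier Slc2a1 was bright in both groups, from 4082 to 8000 in SHR and from 2445 to 6980 in WKY. It was higher by 0.36 ± 0.12 (limma adjusted p = 0.0232), a call lost without the ventral striatum (0.0778), prefrontal cortex (0.055) or vermis (0.0511).

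Of the receptors, Kdr ranged from 455 to 1654 in SHR (median 830) and from 232 to 1008 in WKY (median 455), and was higher by 0.99 ± 0.20 (limma adjusted p = 0.00101). Its regional differences ran from 0.35 in hippocampus to 1.89 in vermis. Tek ranged from 568 to 1478 in SHR (median 1002) and from 355 to 1124 in WKY (median 575), and was higher by 0.73 ± 0.18 (limma adjusted p = 0.00402). Flt1, dim on every array, ranged from 97.0 to 229 in SHR (median 158) and from 47.2 to 91.8 in WKY (median 72.9). Its groups did not overlap, as for 4.26% of all tested genes in this direction; the mean difference was 1.14, with an exact sign-flip permutation p of 0.03125 over 6 regions (two-sided, the smallest this design allows), the same p as for each of the 7 called genes. Vtn, the pericyte product, also did not overlap: 442 to 937 in SHR (median 608) against 131 to 286 in WKY. It had the largest difference of the 8 tested genes, 1.45 ± 0.20 (limma adjusted p = 2.32e-05).

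Pecam1 was the exception. It ranged from 52.0 to 306 in SHR (median 190) and from 101 to 437 in WKY (median 142), a difference of 0.079 ± 0.296 (limma adjusted p = 0.865). It was higher in SHR in 4 regions, by up to 1.24 in prefrontal cortex, and lower in SN/VTA (-1.55) and hippocampus (-1.01).

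**Figure D1:**
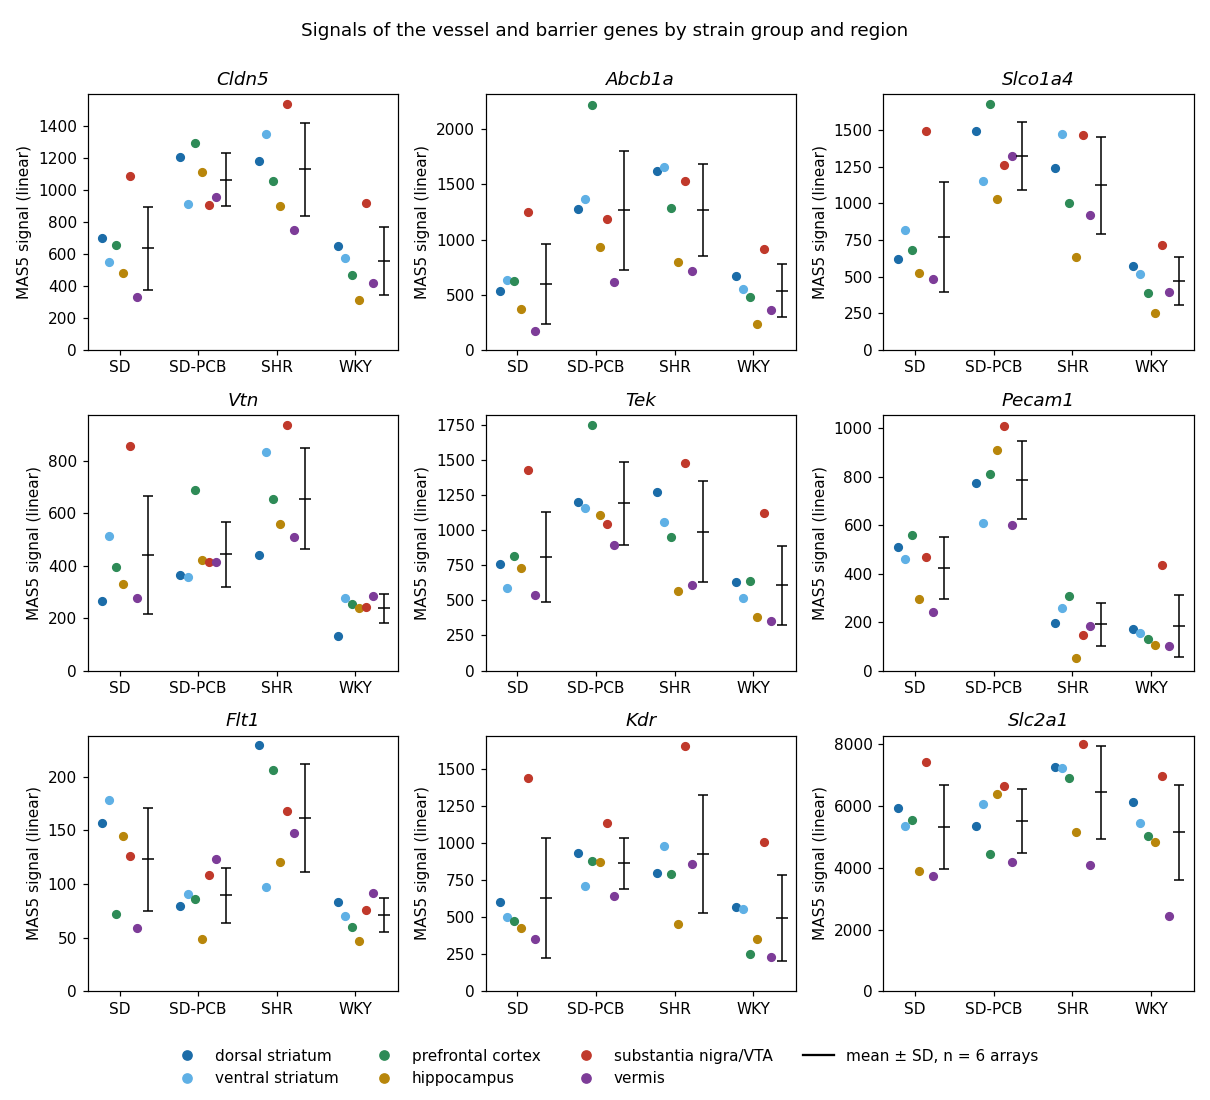
MAS5 signal on a linear axis of the 9 measured genes in the 4 groups; each point is 1 array, coloured by region, and bars show the mean ± SD of 6 arrays. Vtn and Flt1 do not overlap between SHR and WKY, and the mean of Pecam1 is lower in SHR and WKY than in SD and SD-PCB.

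Other genes tied to vessels were counted from lists. Of 18 tested genes of endothelial identity, 12 were higher and 1 lower in SHR (median 0.66), led by the receptor partner Ramp2 (1.96 ± 0.24), Adgrf5 (1.39 ± 0.29), Cd93 (1.08 ± 0.23) and Esam (1.02 ± 0.39). The 1 lower gene, named after its value was seen, was the leukocyte adhesion molecule Vcam1 (-0.74 ± 0.13). Of 16 barrier transporters 8 were higher and none lower, among them the organic anion transporter Slc22a8 (2.19 ± 0.35), the thyroid hormone carrier Slco1c1 (1.06 ± 0.19) and the efflux pump Abcg2 (0.75 ± 0.17). Of 12 basement membrane genes 7 were higher and none lower, with Lamb2 at 1.27 ± 0.33 and Col4a2 at 1.11 ± 0.13. The 9 other junction genes were divided: Ocln (0.87 ± 0.22) and Cldn12 (0.38 ± 0.10) were higher and Jam3 (-0.88 ± 0.30) and Tjp1 (-0.62 ± 0.12) lower. Of 13 genes of VEGF, angiopoietin and Notch signalling 3 were higher and 2 lower, and of 9 of Wnt signalling 2 were higher and 1 lower.

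Markers of other cells moved on the same arrays. Of 12 tested meningeal and fibroblast genes 11 were higher in SHR (median 1.35), and the summed signal of that list ran from 4718 to 23810 in SHR and from 2780 to 8553 in WKY. The blood list, 7 of 13 genes with a probe set, summed to 5085 to 11100 in SHR and 1367 to 3601 in WKY, and Hbb (beta globin), its only tested gene, was higher by 1.71 ± 0.12. Pericyte and smooth muscle markers were dim, with 1 of 19 past the filter, and their sum ran from 1663 to 2289 in SHR and from 1073 to 1420 in WKY. Abcc9, named as the only tested gene of that list, was not called (0.40 ± 0.25, limma adjusted p = 0.23). The part of array brightness in this sum was not tested. Microglial genes were higher for 4 of 9, astrocyte genes for 5 of 11 with 1 lower, and neuronal genes for 1 of 11. Their part in the result was not tested. With the median of each array as a covariate, 3 of the 7 calls remained (Vtn, Slco1a4 and Kdr) and all 7 differences kept their sign; with each array centred on its median, 5 were called and Tek (0.39) and Slc2a1 (0.019) were not.

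In SD-PCB against SD, 6 of the 8 tested genes were higher and none lower, where 14.9% of all tested genes were higher and 13.5% lower (limma, adjusted p under 0.05). The median of the 8 was 0.71, against 0.005 over all genes. The 6 were Abcb1a, Pecam1, Slco1a4, Cldn5, Tek and Kdr, and for 5 of them SN/VTA was the region that went the other way. With 1 region reversed, the exact sign-flip permutation test over 6 regions cannot go below 0.0625 (two-sided), and those 5 genes (Abcb1a, Slco1a4, Cldn5, Tek and Kdr) had that p and did not pass it; Pecam1 had 0.03125.

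Abcb1a ranged from 613 to 2219 in SD-PCB (median 1228) and from 169 to 1250 in SD (median 582), a difference of 1.21 ± 0.22 (limma adjusted p = 0.000204). It differed by 1.10 to 1.86 in the 5 other regions and by -0.08 in SN/VTA. Slco1a4 ranged from 1031 to 1677 in SD-PCB (median 1296) and from 484 to 1497 in SD (median 651), a difference of 0.87 ± 0.17 (limma adjusted p = 0.000516). Apart from the SN/VTA array of SD, every Slco1a4 value of SD lay under every value of SD-PCB. Cldn5 ranged from 904 to 1294 in SD-PCB (median 1031) and from 330 to 1083 in SD (median 601), a difference of 0.83 ± 0.18 (limma adjusted p = 0.00119). Here too the SN/VTA array was the only SD array within the range of SD-PCB. Slc2a1 ranged from 4182 to 6650 in SD-PCB and from 3726 to 7432 in SD, a difference of 0.072 ± 0.116 (limma adjusted p = 0.672).

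Among receptors, Tek ranged from 891 to 1752 in SD-PCB (median 1132) and from 539 to 1429 in SD (median 745), a difference of 0.60 ± 0.18 (limma adjusted p = 0.0126). Kdr ranged from 646 to 1133 in SD-PCB (median 876) and from 354 to 1441 in SD (median 488), a difference of 0.60 ± 0.20 (limma adjusted p = 0.0253). The Tek call was lost without the ventral striatum (0.064) or prefrontal cortex (0.0651), and the Kdr call without the dorsal striatum (0.0645), ventral striatum (0.0516), prefrontal cortex (0.0655) or hippocampus (0.0811). Flt1 ranged from 49.1 to 123 in SD-PCB and from 59.4 to 179 in SD; it was higher in 2 of 6 regions, with a mean difference of -0.40.

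Pecam1 did not overlap, at 600 to 1009 in SD-PCB (median 794) against 240 to 561 in SD (median 466), where 1.82% of all tested genes did not overlap in this direction. It was higher in 6 of 6 regions, as 10.4% of all genes were, by 0.93 ± 0.30 (limma adjusted p = 0.0195), and was the only 1 of the 9 genes higher in SN/VTA. Vtn ranged from 356 to 690 in SD-PCB (median 414) and from 266 to 859 in SD (median 364), a difference of 0.10 ± 0.20 (limma adjusted p = 0.741). In SN/VTA the median difference of the 9 genes was -0.24, against 0.50 to 1.04 in the 5 other regions. The median of all tested genes was also lower in SN/VTA, at -0.17, against -0.0070 to 0.079 in the 5 others. The step from the other regions to SN/VTA was larger for the 9 genes, which ran from -1.05 to 1.1 there. The part of the shift of all genes in it was not tested.

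**Figure D2:**
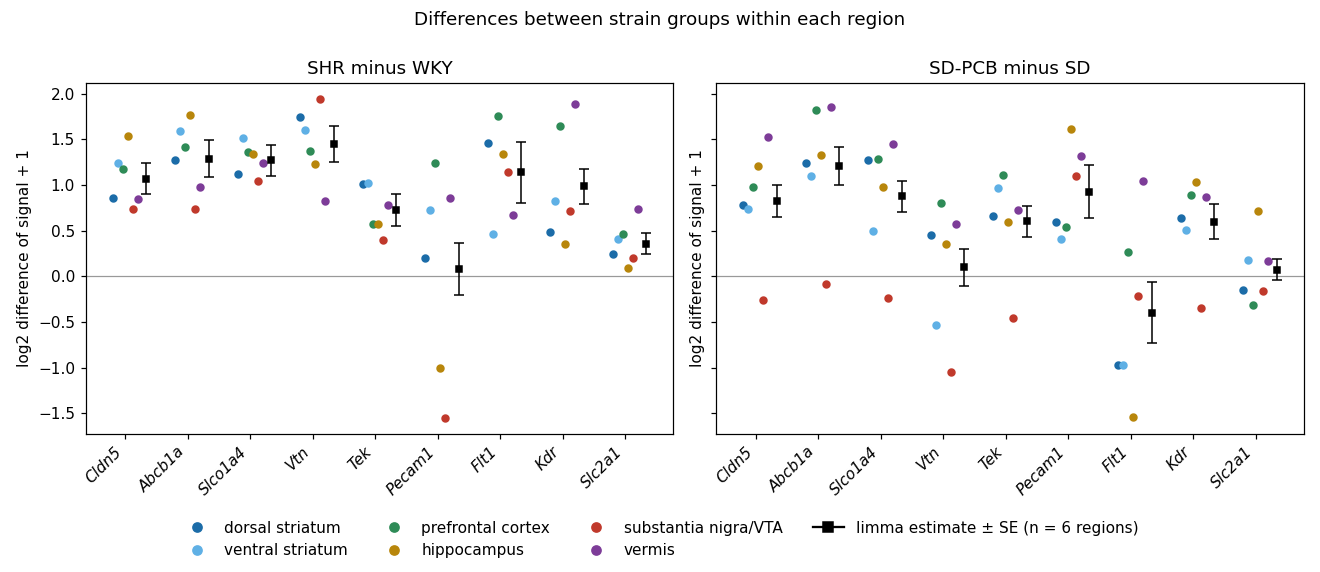
Log2 difference of signal + 1 for SHR minus WKY (left) and SD-PCB minus SD (right); each point is 1 region and squares show the limma estimate ± SE over 6 regions. In SD-PCB minus SD the red SN/VTA points lie below 0 for every gene but Pecam1.

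Of the 18 other endothelial genes, 4 were higher in SD-PCB and 1 lower (median 0.17): the apelin receptor Aplnr (1.45 ± 0.36), Ptprb (0.73 ± 0.18) and Podxl (0.50 ± 0.14) were among the higher and Vcam1 was lower (-0.47 ± 0.13). Of the 16 barrier transporters 3 were higher and 2 lower, with the iron exporter Slc40a1 at 0.94 ± 0.18 and the lipid carrier Mfsd2a at -0.85 ± 0.22. Of the 12 basement membrane genes Col4a2 was higher (0.39 ± 0.13) and Lama2 (-0.82 ± 0.27) and Lamb1 (-0.69 ± 0.22) lower. Of the 9 other junction genes 1 was higher and 1 lower. Of the 13 genes of VEGF, angiopoietin and Notch signalling the type II BMP receptor Bmpr2 (-1.29 ± 0.16), the ligand Vegfb (-0.77 ± 0.19) and the receptor Notch4 (-0.58 ± 0.22) were lower and Hey1 higher (0.36 ± 0.11). Of the 9 Wnt genes 2 were higher and 1 lower. The sum of the dim pericyte and smooth muscle markers ran from 1232 to 1597 in SD-PCB and from 1594 to 2759 in SD. Array medians averaged 98.3 in SD-PCB and 163 in SD, and the part of array brightness in this sum was not tested. Abcc9, the only tested gene of that list, was not called (0.00062 ± 0.251, limma adjusted p = 0.999). The meningeal list had 3 of 12 genes lower and none higher, and its sum ran from 5102 to 17250 in SD-PCB and from 4736 to 27560 in SD. The astrocyte list had 6 of 11 lower and 1 higher, the oligodendrocyte list 4 of 9 lower and 1 higher, the neuronal list 2 of 11 lower and 1 higher, and no microglial gene of 9 was called. Hbb was higher by 1.06 ± 0.12, and the blood list summed to 5892 to 15170 in SD-PCB and 3271 to 5885 in SD. Their part in the result was not tested. With the median of each array as a covariate none of the 8 genes was called (limma). Abcb1a (1.26 ± 0.74) and Cldn5 (1.07 ± 0.60) were no smaller than in the main fit. Slco1a4 (0.43 ± 0.58) and Pecam1 (0.42 ± 0.998) were smaller, and Kdr (-0.54 ± 0.63) and Tek (-0.058 ± 0.587) changed sign. The SEs of these 6 genes were all larger than in the main fit. At an unadjusted p under 0.05 the fit with the covariate had 0 of the 8 genes and 905 of all 8987, of which 0 were called after adjustment. With each array centred on its median all 8 were called higher, as were 98.4% of all called genes, and the median of all genes was 0.73.

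**Figure D3:**
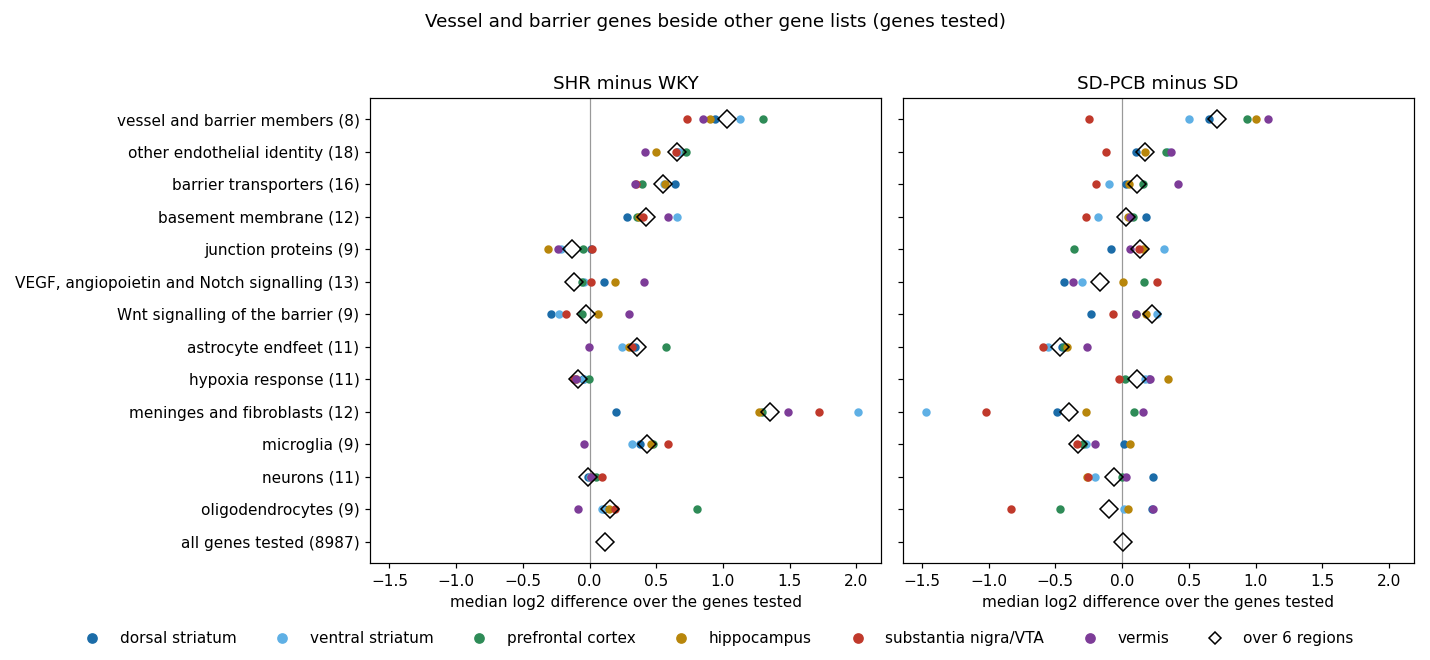
Median log2 difference of each gene list, with the number of genes tested in brackets, for SHR minus WKY (left) and SD-PCB minus SD (right); points are regions and open diamonds the value over 6 regions. The meningeal list lies at 1.35 on the left and -0.40 on the right, and the vessel and barrier genes at 1.03 and 0.71.

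The models were compared directly as the SHR minus WKY difference less the SD-PCB minus SD difference. Of the 8 genes, Vtn alone passed, with 1.35 ± 0.28 (limma adjusted p = 0.000794), where 22.9% of all genes were called higher and 16.9% lower. Pecam1 had -0.85 ± 0.42 (adjusted p = 0.107), and the other 6 lay between 0.083 and 0.39. With the median of each array as a covariate the Vtn difference was 1.95 ± 0.98 (limma adjusted p = 0.446). With each array centred on its median, Vtn was not called and 6 others were called lower, so this comparison depends on how the arrays are scaled.

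The remaining comparisons share arrays with those above and are given side by side. In SHR against SD, 5 of 8 were higher (24.3% of all genes) and 1 lower (11.5%). Abcb1a was higher by 1.25 ± 0.22, Cldn5 by 0.89 ± 0.18, Vtn by 0.65 ± 0.20, Kdr by 0.62 ± 0.20 and Slco1a4 by 0.60 ± 0.17, and Pecam1 was lower (-1.27 ± 0.30, limma adjusted p = 0.00229). In WKY against SD, 3 of 8 were lower (7.83%) and none higher (9.32%): Pecam1 (-1.35 ± 0.30), Vtn (-0.80 ± 0.20) and Slco1a4 (-0.67 ± 0.17). Pecam1 was lower than in SD in 6 of 6 regions in both SHR (as 12.4% of all genes were) and WKY (9.17%). Against SD, the SHR calls were lost for Slco1a4 without the dorsal striatum (0.054), for Vtn without the hippocampus (0.0552) and for Kdr without the ventral striatum (0.08) or vermis (0.0792), and the WKY call for Slco1a4 without the hippocampus (0.051), all limma adjusted p-values. With the median of each array as a covariate, all 3 WKY calls were lost, with limma adjusted p-values of 0.302 for Pecam1, 0.343 for Vtn and 0.316 for Slco1a4, and of the 6 SHR calls that of Kdr (0.0819). The exact sign-flip permutation p was 0.0625 for Vtn in WKY and for Slco1a4 in SHR, and 0.03125 for the other calls. In SHR against SD-PCB, Pecam1 was lower (-2.20 ± 0.30, limma adjusted p = 4.67e-06; 19.2% of all genes were lower) and Vtn higher (0.55 ± 0.20, limma adjusted p = 0.0259; 32.5% higher). The Pecam1 values, 52.0 to 306 in SHR and 600 to 1009 in SD-PCB, did not overlap, as for 3.63% of all genes in this direction. Vtn lost its call without the ventral striatum, hippocampus or SN/VTA, and its sign turned with median centring (-0.084). The array median as a covariate removed both calls, with limma adjusted p-values of 0.272 for Pecam1 and 0.418 for Vtn, and the exact sign-flip permutation p of Vtn was 0.0625.

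By region, 8 of the 9 genes had their highest mean in SN/VTA, all but Flt1, and 8 of 9 their lowest in vermis or hippocampus. Kdr in SN/VTA was 1441 in SD, 1133 in SD-PCB, 1654 in SHR and 1008 in WKY, above all 20 other arrays, which reached 981. Its difference from the mean of the other 5 regions was 1.18 ± 0.19 (n = 4 groups, limma adjusted p = 4.08e-05), the only gene of the 8 past the threshold with a log2 difference of at least 1, where 3.3% of all genes were higher. With the median of each array as a covariate it was 0.88 ± 0.24 (limma adjusted p = 0.0108), short of the size threshold. The second, dim Kdr probe set ran the other way, from 2.08 to 93.3 in SN/VTA and from 74.9 to 185 in vermis. At a log2 difference of at least 0.5, 6 of the 8 were higher there, where 12.9% of all genes were: Kdr, Abcb1a (0.77 ± 0.21), Tek (0.72 ± 0.17), Slco1a4 (0.64 ± 0.16), Cldn5 (0.59 ± 0.17) and Slc2a1 (0.50 ± 0.11). Without the SD-PCB arrays, Kdr, Abcb1a and Tek passed at 1. Of the 18 other endothelial genes Aplnr (2.01 ± 0.34) and Ramp2 (1.06 ± 0.22) passed at 1 as higher there and Palmd (-1.09 ± 0.23) as lower. Of markers of other cells, 4 of 9 oligodendrocyte and 4 of 12 meningeal genes passed as higher. The meningeal sum was 8553 to 27560 in SN/VTA and 2780 to 5102 in dorsal striatum, and the part of these markers was not tested.

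In vermis Abcb1a was 169 in SD, 613 in SD-PCB, 717 in SHR and 364 in WKY. It was lower than the other regions (-1.11 ± 0.21, limma adjusted p = 0.000106), where 9.89% of all genes were lower, and fell short of the size threshold without the SD arrays (-0.84) and with cyclic loess normalization (-0.97). The dim Abcb1a probe sets were not lowest in vermis. The second averaged 59.7 there, where the other regions ran from 55.8 to 82.5. The one shared with Abcb1b was highest in vermis, at 80.0 against 27.9 to 46.8. Slc2a1 in vermis was 3726 in SD, 4182 in SD-PCB, 4082 in SHR and 2445 in WKY, a difference of -0.74 ± 0.11 (limma adjusted p = 6.35e-06). At a log2 difference of at least 0.5, 5 of the 8 were lower in vermis, where 22.7% of all genes were. Some markers of other cells were lower in vermis on the same arrays. At a log2 difference of at least 1, 7 of 9 microglial genes passed as lower, led by Aif1 (-1.71 ± 0.17) and C1qc (-1.41 ± 0.25). With them were 4 of 9 oligodendrocyte genes, led by Mag (-1.58 ± 0.25) and Opalin (-1.51 ± 0.21), 4 of 11 neuronal genes and the astrocyte gene Slc1a2 (-1.60 ± 0.145). The microglial sum was 3378 to 5678 in vermis and at least 7529 in every other array, and 3 of 4 choroid plexus genes passed as higher. Other sums were not low in vermis. The astrocyte sum had a median of 70880 there, against 42900 to 55600 in the other regions. The neuronal median (84690) was the highest of the regions, and the oligodendrocyte median (54920) was not the lowest. The part of these markers in the result was not tested. Neighbouring regions in the order of mean levels differed by less than their SD over the 4 groups, apart from the step below SN/VTA for Kdr and Slc2a1 and that from hippocampus to vermis for Slc2a1.

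**Figure D4:**
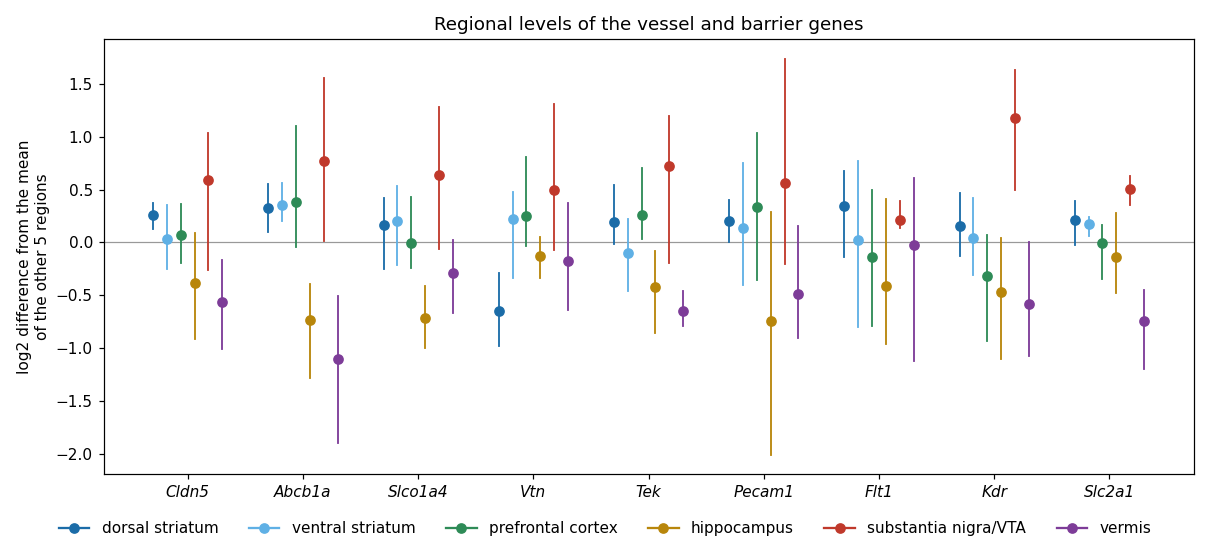
Log2 difference of each region from the mean of the other 5; points are means over 4 groups and lines run from the lowest to the highest group. Kdr in SN/VTA is the highest point, at 1.18, and Abcb1a in vermis the lowest, at -1.11.

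By group, mean levels of Cldn5 and Abcb1a ran from SHR over SD-PCB and SD to WKY, and of these neighbours SD-PCB and SD alone differed by more than their SD over regions. Groups accounted for 11.6% (Slc2a1) to 71.3% (Pecam1) of the variance of log2 signal over the 24 arrays, against a median of 28.4% over all tested genes. Regions accounted for 10.6% (Flt1) to 69.0% (Slc2a1), against 38.2%. The genes varied together as a description: 35 of 36 pairs had a positive Pearson correlation over 24 arrays (median 0.607), highest for Cldn5 with Abcb1a (0.938). The arrays share groups and regions, and with both removed 28 of 36 pairs were positive (median 0.30). The other genes most like the mean of the 9 over the 24 arrays were Srgn (r = 0.871), the dicarboxylate carrier Slc13a3 (0.868), the cationic amino acid carrier Slc7a1 (0.863), Timp3 (0.841), Prom1 (0.826), Acadl (0.814), the ETS factor Fli1 (0.81) and Cyp2u1 (0.80).

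The dimmer probe sets did not always follow the brightest. The second Abcb1a probe set (mean signal 67.9) was higher in SHR than WKY by 1.21 ± 0.42 and differed by -0.041 ± 0.424 between SD-PCB and SD. The second Slco1a4 probe set (78.3) was higher in SD-PCB than SD by 2.46 ± 0.58, and that of Kdr (67.5) lower (-1.71 ± 0.66, limma adjusted p = 0.0425 without the filter).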

How the data were processed

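The deposited values are linear intensities, 1 for every probe set on 24 Affymetrix arrays (Rat RAE 230 2.0). MAS5 is the tool named, per the submitters' processing notes; its version is not given in the sources used here. Per the labels' protocols, RNA was purified with Qiagen RNeasy and labelled with the Nugen Ovation kit. The 2% trimmed mean of each array is close to 500. Detection calls, scan dates and batches were not used here.

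Of 31099 probe sets 57 controls were set aside. The scale of all fits was log2(signal + 1). A probe set was tested where its mean linear signal reached the median of all (137), which 15521 did. Dim probe sets gave less precise differences. In SD-PCB minus SD without the filter, SEs were 0.585 and 0.655 for the second probe sets of Slco1a4 and Kdr. For their brightest probe sets they were 0.167 and 0.193. Genes were named from the platform annotation. limma 3.58.1 in R 4.3.3 fitted group and region on all 24 arrays (15 residual degrees of freedom, trend, two-sided, Benjamini-Hochberg over probe sets, threshold 0.05; regions also a log2 difference of at least 1). Group comparisons of single genes were also given an exact sign-flip permutation test over 6 regions.

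Named genes are all members, and for each other list up to 4 genes past the threshold with the largest differences; exceptions are marked. The members and lists were chosen with earlier results of these data known. Alternatives covered normalization, pseudocount, filters, trend, weights, the array median as a covariate, omitted arrays, thresholds and other probe sets; a filter on mean log2 signal was chosen after seeing the data. The fit was tested on simulated data.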

Additional observations from a re-analysis of the deposited data

Results flagged for a closer look

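Each gene was looked at within each group of 6 arrays and each region of 4 arrays, 90 sets of values in all. The test used flags about 1 in 20 by chance. A single array lay far from the rest in 4 sets, all of them groups of 6 arrays. That is no more than this rate gives over 90 sets. Vtn was 690 in the SD-PCB prefrontal cortex, where the next array had 424. Vtn was 131 in the WKY dorsal striatum, the next being 238. Slc2a1 was 2450 in the WKY vermis, the next being 4840. Pecam1 was 437 in the WKY SN/VTA, the next being 171. The same array enters the SHR minus WKY difference in SN/VTA, so the flag and that difference are not separate observations. Pecam1 was lower in SHR than in WKY in SN/VTA and also in hippocampus.

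The Vtn difference between the models, 1.35 (SE 0.284, limma adjusted p = 0.000794), was the only one of the 8 tested genes to pass the test of the difference itself. Of all tested genes 39.8% passed it in either direction. Vtn was not called with the array median as a covariate (limma adjusted p = 0.446) or with each array centred on its median.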

How the results depend on the processing

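Single-gene values were computed 1511 times under alternatives: 1404 kept their side of the threshold (54 of them, with no call either way, changed sign), 61 lost a call, 30 gained one and 16 changed sign with a call in at least 1 of the fits. The exact sign-flip permutation test removed 8 calls, all at 0.0625, and added 2. Centring each array on its median moved the median of all genes to -0.224 in SHR minus WKY, to 0.729 in SD-PCB minus SD, to 0.219 in SHR minus SD and to 0.475 in WKY minus SD, and the higher share of called genes from 61.1%, 52.6%, 67.9% and 54.3% to 11.8%, 98.4%, 80% and 96.7%. It then gave 6 genes for the difference of the models (main 1), with Abcb1a at -0.978, Cldn5 -0.821, Slc2a1 -0.777, Slco1a4 -0.667 and Tek -0.934. It gave 7 for SHR minus SD-PCB (main 2), with Abcb1a at -0.60, Cldn5 -0.577, Kdr -0.617 and Slc2a1 -0.427 among them, while Vtn turned to -0.0839 and lost its call (limma adjusted p = 0.752); it also turned Slc2a1 in WKY minus SD to 0.35. It gave 2 in vermis (main 1). The array median as a covariate left 3 of 7 genes in SHR minus WKY, 0 in SD-PCB minus SD (Kdr -0.544, Tek -0.058), SHR minus SD-PCB, WKY minus SD, the difference of the models and SN/VTA; in that fit 0, 0, 5, 1 and 6 of the 8 genes had an unadjusted limma p under 0.05. Cyclic loess gave 2 for the models and 0 in vermis. No filter changed no call of the 8 genes but let Flt1 into the test, which gave 2 for the models. Flt1 was then also called in SHR minus WKY (limma adjusted p = 0.0168) and SHR minus SD-PCB (limma adjusted p = 0.0452). The upper 25% of probe sets gave 0 for the models, 0 for SHR minus SD-PCB and 1 for WKY minus SD, with fewer genes tested. A log2 threshold of 0.5 gave 1 in dorsal striatum, 2 in hippocampus, 6 in SN/VTA and 5 in vermis. Other probe sets turned Kdr (-1.71) and Abcb1a (-0.0407) in SD-PCB minus SD and Slco1a4 (0.508) in WKY minus SD. Leaving out arrays gave 6 to 7 genes in SHR minus WKY, 4 to 6 in SD-PCB minus SD, 5 to 6 in SHR minus SD, 1 to 2 in SHR minus SD-PCB, 2 to 4 in WKY minus SD, 1 to 2 for the models, 1 to 3 in SN/VTA, 0 to 1 in vermis and 0 to 1 in hippocampus. They moved by over 1.5 times without ventral striatum (SHR minus SD-PCB, 1), hippocampus (models, 2), SD-PCB arrays (SN/VTA 3, hippocampus 1) and SD arrays (vermis 0). Smaller shifts were to 4 without prefrontal cortex or ventral striatum and 5 without dorsal striatum or hippocampus (SD-PCB minus SD), to 6 without prefrontal cortex, ventral striatum or vermis (SHR minus WKY), to 5 without dorsal striatum, ventral striatum or hippocampus (SHR minus SD), and to 2 without hippocampus and 4 without SN/VTA (WKY minus SD). The cause was not tested. The mean log2 filter changed no call. Region pairs the arrays of the groups and is a term of every fit; the labels carry no replicate numbers for a further pairing. One array per group and region, and no detection calls, limit the precision for dim probe sets such as Flt1.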
